A study of Mus musculus with 6 samples.

Results

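A set of 58 genes that act in mitosis was examined in mouse embryonic fibroblasts (MEFs) given ORAI2 or a control. The set holds cyclins, mitotic kinases, spindle checkpoint, centromere and kinetochore genes, kinesins, spindle and cytokinesis factors, genes of the anaphase-promoting complex (APC/C), condensin and the transcription factors Mybl2 and Foxm1. Its members are a list of symbols drawn up with earlier results of these data known, so the list is not independent of them, and all 58 were found among the 26532 genes of the table. The ORAI2 group comprised 3 libraries from MEFs infected with a recombinant adenovirus carrying ORAI2, which forms channel pores for calcium entry after store release. The GFP group comprised 3 libraries from MEFs infected with an adenovirus carrying green fluorescent protein (GFP). All 6 libraries carry the treatment label osteogenic differentiation and the cell type label of mesenchymal stem cells. The genotype is labelled ORAI2 Overexpression in the ORAI2 group and WT in the GFP group. Strain, time in culture, virus dose and any addition of BMP9 are not stated in the labels. The design text calls the infected cells lines, and no label says whether replicate libraries are separate cultures. The p-values therefore reflect library-to-library spread, part or all of which may be technical.

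Cells enter mitosis when cyclin B and the kinase CDK1 become active, helped by CDC25 phosphatases and by Aurora and polo-like kinases. Kinesins build the spindle, kinetochores join chromosomes to it, and the spindle checkpoint holds back the APC/C until every chromosome is attached. CDC20 then switches on the APC/C, which destroys securin and cyclin B, so that separase can cut cohesin and the cell can divide. Transcription of most of these genes peaks late in the cell cycle, through B-MYB and FOXM1 acting with the MuvB core at promoter elements named CHR, while the related DREAM complex keeps them silent in resting cells. In cultures driven towards bone, dividing precursors give way to matrix-forming cells that divide little.

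Total counts lay between 18526884 and 18844436 per library, and between 19761 and 20038 genes had a count. Orai2 had 67882, 53034 and 45140 counts in the ORAI2 libraries, against 994, 914 and 909 counts in the GFP libraries, so the counts of every library matched its label. The supplied gene was thus far higher in all 3 ORAI2 libraries, at 2976 ± 620 CPM in ORAI2 and 50.3 ± 2.64 CPM in GFP (SD, n = 3 each). CPM are counts scaled to a common library total with TMM factors. Of 13764 genes with enough counts to test, 5909 (42.9%) passed an adjusted p under 0.05 in edgeR's quasi-likelihood test, with 2869 (20.8%) higher and 3040 (22.1%) lower in ORAI2. Small changes that passed the test were therefore common in this comparison, and each count below stands against these shares.

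The mitotic genes were mostly and modestly higher with ORAI2. All 58 passed the filter on low counts, 42 of them were called higher, 1 was called lower and 15 were not called. The median log2 fold change over the 58 genes was 0.25, beside -0.0018 over all genes tested, and 55 of 58 values were positive. The range ran from -0.49 for Pttg1 to 0.54 for Hmmr, and no member was called with a change of 1.5-fold or more. Over all genes tested, 1223 of 13764 were called with a change of that size. In 44 members every ORAI2 value exceeded every GFP value, a pattern seen in 26.2% of all genes tested. In 1 member, Pttg1, every ORAI2 value was below every GFP value, as in 26.6% of all genes.

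Summed over the 58 genes, the level was 6622, 6574 and 6327 CPM in the ORAI2 libraries, against 5671, 5722 and 5404 CPM in the GFP libraries. The groups did not overlap, and the summed level in ORAI2 was 1.16 times that in GFP. Within the ORAI2 group the third library stood lowest: the median member lay 0.25, 0.26 and 0.21 log2 units above the GFP mean in ORAI2 libraries 1, 2 and 3. The first ORAI2 library held the highest value of 32 members and the third ORAI2 library of 5, while GFP library 3 held the lowest value of 40 members. With each library left out in turn, 39 to 43 members were called higher, and Pttg1 stayed the 1 member called lower. In bulk RNA a larger share of cells in mitosis and more of these mRNAs per cell cannot be told apart.

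**Figure D1:**
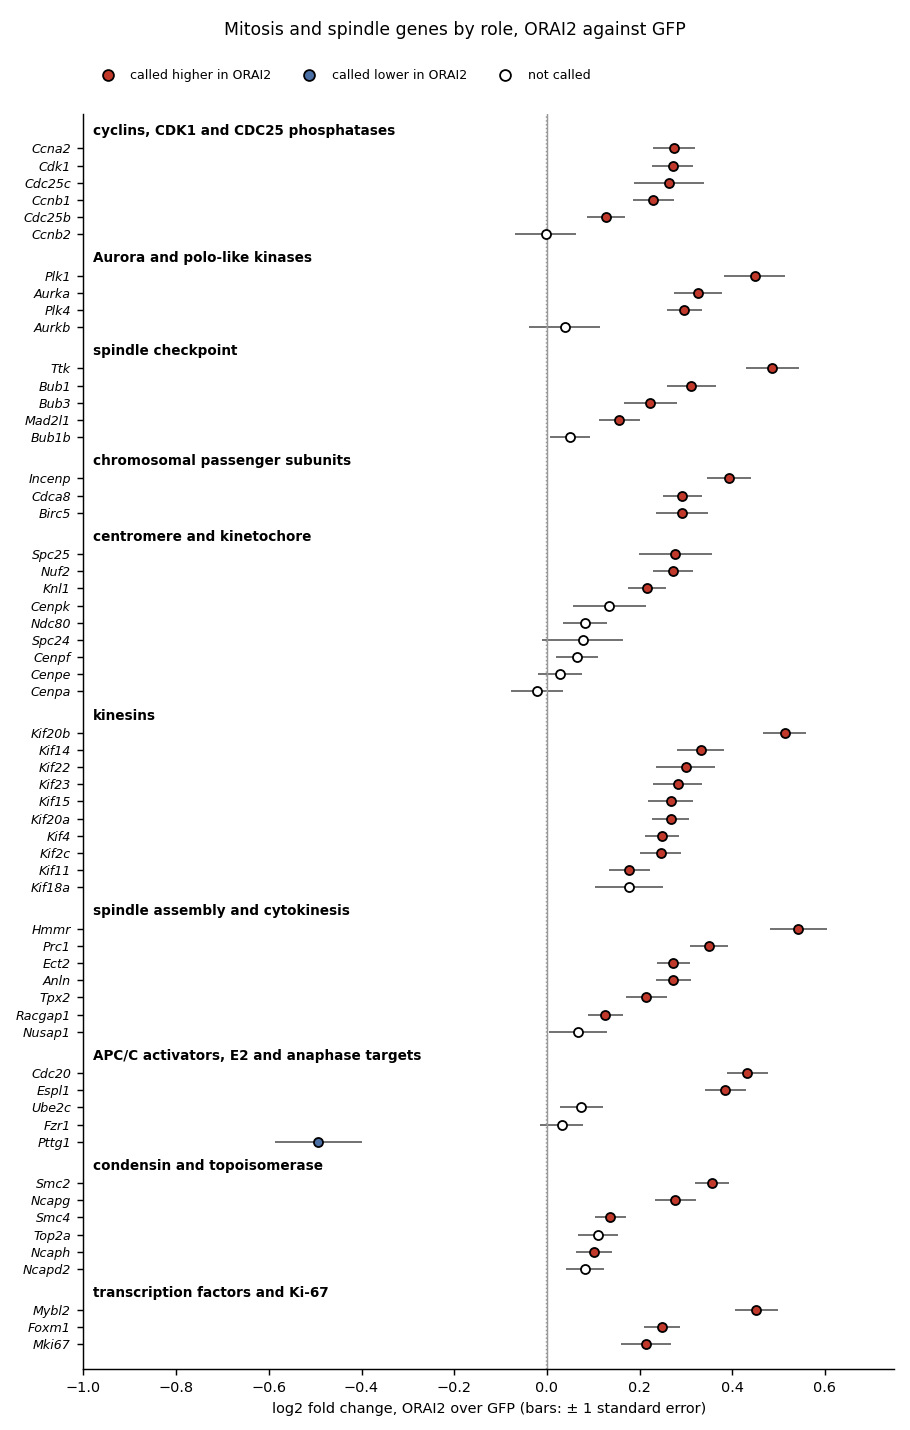
Log2 fold change of each of the 58 members, ORAI2 over GFP, grouped by role, with bars of 1 standard error. Filled red points are called higher, the blue point (Pttg1) is called lower and open points are not called. The solid line marks 0 and the dotted line beside it the median of all genes tested. Most points lie between 0 and 0.54, and the centromere and kinetochore group holds 6 of the 15 open points.

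The promoters of the members were read for the elements that this gene class is known for. RefSeq promoter windows (build GRCm38.p6, 250 bases before to 50 after the annotated start) were matched by symbol for 49 members, with 54 windows. The searched letters were TTTGAA or TTCGAA for the CHR, CCAAT for the CCAAT box bound by NF-Y, and TTTCCCGC or TTTGGCGC for E2F elements. Both strands were read, overlapping matches were each counted, and TTCGAA, which reads the same on both strands, was counted once. The 6 windows below were chosen to set members with large rises (Cdc20, Ttk, Hmmr, Plk1) beside Ccnb2, which was not called, and Pttg1, which fell. Capitals mark CHR and CCAAT letters, and on the opposite strand these appear as TTCAAA and ATTGG.
Cdc20 (chr4:118437294-118437593, minus strand): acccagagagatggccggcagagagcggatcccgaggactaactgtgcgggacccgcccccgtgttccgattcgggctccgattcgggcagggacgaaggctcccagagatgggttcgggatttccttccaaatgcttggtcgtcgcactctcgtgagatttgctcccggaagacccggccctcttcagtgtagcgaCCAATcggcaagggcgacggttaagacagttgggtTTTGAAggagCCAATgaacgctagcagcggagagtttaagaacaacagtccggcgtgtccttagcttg
Ttk (chr9:83834439-83834738, plus strand): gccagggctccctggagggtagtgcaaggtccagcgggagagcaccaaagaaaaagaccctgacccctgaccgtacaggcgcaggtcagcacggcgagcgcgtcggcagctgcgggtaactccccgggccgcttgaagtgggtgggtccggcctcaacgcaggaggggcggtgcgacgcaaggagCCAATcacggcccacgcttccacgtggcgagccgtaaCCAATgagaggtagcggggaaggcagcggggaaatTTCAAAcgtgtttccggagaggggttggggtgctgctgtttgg
Hmmr (chr11:40733388-40733687, minus strand): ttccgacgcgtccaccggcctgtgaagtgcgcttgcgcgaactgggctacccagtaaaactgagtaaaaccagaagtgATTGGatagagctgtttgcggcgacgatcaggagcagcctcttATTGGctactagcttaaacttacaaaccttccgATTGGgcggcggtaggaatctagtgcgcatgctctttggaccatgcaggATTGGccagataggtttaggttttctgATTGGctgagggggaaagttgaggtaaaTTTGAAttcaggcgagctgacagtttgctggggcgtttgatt
Plk1 (chr7:122159185-122159484, plus strand): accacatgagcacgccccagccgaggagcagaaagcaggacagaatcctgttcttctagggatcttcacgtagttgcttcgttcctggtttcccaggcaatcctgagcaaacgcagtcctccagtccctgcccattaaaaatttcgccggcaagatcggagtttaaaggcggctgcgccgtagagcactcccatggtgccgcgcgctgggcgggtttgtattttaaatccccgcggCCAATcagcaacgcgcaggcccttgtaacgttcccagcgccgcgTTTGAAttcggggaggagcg
Ccnb2 (chr9:70421505-70421804, minus strand): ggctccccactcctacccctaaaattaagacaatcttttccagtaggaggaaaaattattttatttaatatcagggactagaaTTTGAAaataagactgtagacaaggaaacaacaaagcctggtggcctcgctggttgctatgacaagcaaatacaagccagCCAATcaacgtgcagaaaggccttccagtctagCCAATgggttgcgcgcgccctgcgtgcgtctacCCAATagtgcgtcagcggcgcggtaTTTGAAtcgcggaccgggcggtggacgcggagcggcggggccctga
Pttg1 (chr11:43425932-43426231, minus strand): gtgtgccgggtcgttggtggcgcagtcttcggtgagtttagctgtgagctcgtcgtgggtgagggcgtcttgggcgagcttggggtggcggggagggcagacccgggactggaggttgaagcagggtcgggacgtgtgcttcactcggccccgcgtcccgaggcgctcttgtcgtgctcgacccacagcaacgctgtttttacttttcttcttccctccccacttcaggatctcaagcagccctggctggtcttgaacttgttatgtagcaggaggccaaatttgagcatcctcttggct

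In these windows Cdc20 holds its CHR at position -18 from the start and Plk1 at position 31, each with a CCAAT box upstream of it. Ttk carries the CHR letters at position 8 on the opposite strand. Hmmr combines a CHR at position 9 with 5 CCAAT boxes, all on the opposite strand. Ccnb2 has 2 CHR matches, at positions -167 and 5, and 3 CCAAT boxes between them, yet its level did not differ detectably between the groups. Pttg1 has none of the searched letters in its window. The same holds for Mybl2, which is not shown and rose about as much as Plk1 (log2 fold change 0.45). Plk4, Birc5, Nuf2, Mad2l1 and Ncaph, all called higher, and Nusap1, not called, also have none of them. Kif20b, with one of the largest rises, has 2 adjoining CHR matches, at positions 8 and 14, and no CCAAT box. Top2a and Ube2c, neither of them called, hold 6 CCAAT boxes each, with 4 CHR matches in Top2a and 1 in Ube2c. Cenpa and Cenpf, also not called, each have 1 CHR match and 2 CCAAT boxes.

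CHR letters were found in 39 of the 54 member windows (72.22%), beside 14.48% of the windows of tested genes and 19.23% of all 32851 windows in the table. A CHR within 50 bases of the start was found in 34 member windows (62.96%), beside 3.81% of tested genes' windows. The CCAAT box was in 39 windows (72.22%), beside 37.93%, and both elements together were in 33 (61.11%), beside 5.99%. The searched E2F letters were rare in every group, with 4 member windows (7.41%) beside 2.85% of those of tested genes. Other spellings of the CHR and E2F elements were not searched, so a window without a match may still hold such an element. Of the 36 members with a CHR, 28 were called higher and none lower, with a median log2 fold change of 0.27. Of the 13 members with a window and no CHR, 7 were called higher and 1 lower, with a median of 0.16. The presence of CCAAT split the members less: 24 of 34 with it and 11 of 15 without it were called higher, with medians of 0.26 and 0.25. These are descriptions of letters in fixed windows, and no test was made of the splits.

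**Figure D2:**
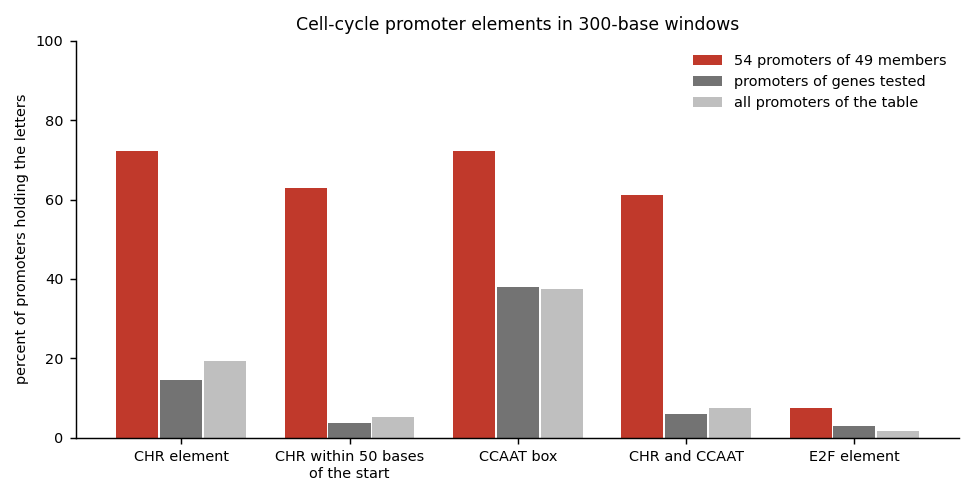
Percent of promoter windows that hold each element, for the 54 windows of 49 members (red), the windows of all genes tested (dark grey) and all windows of the RefSeq table (light grey). The CHR bar of the members stands at 72.22%, above 14.48% for tested genes, and the E2F bars are low in each group.

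Both transcription factors of the class and the proliferation marker Ki-67 rose. Mybl2, which encodes B-MYB, the partner of the MuvB core, was at 99.7, 90.1 and 90.2 CPM in the ORAI2 libraries, against 68.00, 69.7 and 66.96 CPM in the GFP libraries. It rose 1.37-fold (log2 fold change 0.45 ± 0.047 SE; adjusted p of 8.80e-06, edgeR). Foxm1, the forkhead factor that activates late cell cycle genes, was at 160.2, 152 and 147 CPM in the ORAI2 libraries, against 130.1, 129.8 and 127 CPM in the GFP libraries, a rise of 1.19-fold (adjusted p = 2.47e-04, edgeR). Neither factor's groups overlapped. Mki67, the coat protein of mitotic chromosomes used as a proliferation marker, was at 237, 216 and 219 CPM in the ORAI2 libraries, against 197, 206 and 176 CPM in the GFP libraries, 1.16-fold higher (adjusted p = 0.00656, edgeR). For Mki67 the nearest libraries, ORAI2 library 2 and GFP library 2, lay close together.

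Of the 6 genes of the cyclin and CDK1 engine, 5 rose and 1 was not called, with a median log2 fold change of 0.25. Ccna2, the cyclin of S phase and early mitosis, was at 177, 191 and 172 CPM in the ORAI2 libraries, against 146, 155 and 145 CPM in the GFP libraries, 1.21-fold higher (adjusted p = 3.38e-04, edgeR). Cdk1, the master kinase of mitosis, was at 171, 175 and 164 CPM in the ORAI2 libraries, against 147, 144 and 133 CPM in the GFP libraries, 1.21-fold higher (adjusted p = 3.07e-04, edgeR). In both genes the lowest ORAI2 library lay clearly above the highest GFP library. Ccnb1, the main mitotic cyclin, rose 1.17-fold, and the phosphatases Cdc25c and Cdc25b, which activate CDK1, rose 1.2-fold and 1.09-fold. The other B-type cyclin did not follow: Ccnb2 was at 43.6, 42.97 and 37.4 CPM in the ORAI2 libraries, against 43.05, 42.6 and 38.6 CPM in the GFP libraries (log2 fold change -0.0029 ± 0.067 SE; adjusted p of 0.978, edgeR). Its groups overlapped fully, and the lowest library of each group was the third. The call of Cdc25b was lost without ORAI2 library 1, ORAI2 library 3 or GFP library 3 (adjusted p = 0.0503, 0.0517 and 0.0734), and that of Cdc25c without GFP library 3 (adjusted p = 0.0509). Cdc25b also lost its call under DESeq2 (adjusted p = 0.0844) and with no low-count filter (0.0539).

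Of the 4 Aurora and polo-like kinase genes, 3 rose, with a median of 0.31. Plk1, the polo-like kinase that acts from mitotic entry to cytokinesis, was at 63.8, 61.2 and 53.9 CPM in the ORAI2 libraries, against 42.1, 46.9 and 42.2 CPM in the GFP libraries. It was 1.36-fold higher (log2 fold change 0.45 ± 0.066 SE; adjusted p of 1.52e-04, edgeR), although ORAI2 library 3 was well below the other two. Aurka, the Aurora kinase of centrosomes and spindle poles, was at 96.7, 88.9 and 85.9 CPM in the ORAI2 libraries, against 74.9, 73.6 and 67.97 CPM in the GFP libraries, 1.25-fold higher (adjusted p = 2.96e-04, edgeR). Plk4, the kinase that starts centriole duplication, rose 1.23-fold. Aurkb, the Aurora kinase of centromeres and the midbody, was at 24.9, 23.97 and 25.1 CPM in the ORAI2 libraries, against 21.3, 26.01 and 24.7 CPM in the GFP libraries (adjusted p = 0.716, edgeR), and its ORAI2 values lay within the GFP range. Over all 8 protein kinases among the members (Cdk1, Plk1, Plk4, Aurka, Aurkb, Ttk, Bub1 and the kinase-like Bub1b), 6 rose and 2 were not called, with a median log2 fold change of 0.30.

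Of the 5 spindle checkpoint genes, 4 rose, with a median of 0.22. Ttk, the kinase MPS1 that starts checkpoint signalling at unattached kinetochores, was at 52.9, 49.8 and 47.6 CPM in the ORAI2 libraries, against 37.7, 35.7 and 33.9 CPM in the GFP libraries. It rose 1.4-fold (log2 fold change 0.49 ± 0.057 SE; adjusted p of 2.37e-05, edgeR), and its groups were far apart. Bub1, a kinase that recruits other checkpoint proteins, was at 95.6, 87.8 and 83.99 CPM in the ORAI2 libraries, against 71.6, 74.9 and 68.8 CPM in the GFP libraries, 1.24-fold higher (adjusted p = 4.03e-04, edgeR). Bub3 and Mad2l1, both parts of the complex that inhibits CDC20, rose 1.17-fold and 1.11-fold. Bub1b, which encodes BUBR1 of the same inhibitor, was at 105, 97.3 and 97.03 CPM in the ORAI2 libraries, against 96.6, 99.3 and 93.7 CPM in the GFP libraries (adjusted p = 0.386, edgeR). Its groups overlapped.

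The chromosomal passenger complex carries Aurora B to centromeres and later to the midzone, and all 3 genes for its other subunits rose. Incenp, the scaffold, was at 74.6, 72.4 and 68.2 CPM in the ORAI2 libraries, against 55.2, 56.1 and 52.6 CPM in the GFP libraries, 1.31-fold higher (log2 fold change 0.39 ± 0.048 SE; adjusted p of 3.09e-05, edgeR). Cdca8, which encodes borealin, was at 70.4, 70.9 and 70.96 CPM in the ORAI2 libraries, against 55.9, 59.6 and 57.9 CPM in the GFP libraries, 1.22-fold higher (adjusted p = 1.20e-04, edgeR). Birc5, which encodes survivin, was at 78.8, 76.8 and 72.5 CPM in the ORAI2 libraries, against 62.3, 66.8 and 57.3 CPM in the GFP libraries, 1.22-fold higher (adjusted p = 0.00111, edgeR). In none of the 3 did the groups overlap, whereas the kinase subunit Aurkb was not called.

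The centromere and kinetochore genes had the smallest share called higher of the 10 roles, with 3 of 9 higher, none lower and a median log2 fold change of 0.08. The 3 that rose belong to the outer kinetochore, where microtubules attach. Spc25, of the NDC80 complex, was at 23.5, 27.7 and 25.7 CPM in the ORAI2 libraries, against 22.2, 21.8 and 19.4 CPM in the GFP libraries, 1.21-fold higher (adjusted p = 0.0124, edgeR). Nuf2, of the same complex, was at 61.6, 64.4 and 64.3 CPM in the ORAI2 libraries, against 52.8, 51.9 and 52.8 CPM in the GFP libraries, 1.21-fold higher (adjusted p = 2.43e-04, edgeR). Knl1, the platform for BUB proteins, rose 1.16-fold. The other NDC80 complex genes, Ndc80 and Spc24, had fold changes of 1.06 and 1.05 and were not called. Cenpk, Cenpf and Cenpe, for an inner kinetochore protein, a corona protein and a kinetochore kinesin, had fold changes of 1.1, 1.05 and 1.02, also not called. Cenpa, the histone H3 variant that marks centromeres, was at 42.9, 41.2 and 40.9 CPM in the ORAI2 libraries, against 40.95, 45.5 and 40.5 CPM in the GFP libraries (log2 fold change -0.02 ± 0.056 SE; adjusted p of 0.782, edgeR), with overlapping groups. The call of Spc25 was lost without ORAI2 library 2 or GFP library 3 (adjusted p = 0.0543 and 0.0511).

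The kinesins of this role rose nearly throughout, with 9 of 10 called higher, a median of 0.27 and no overlap between the groups in any of the 10. The kinesin Cenpe, counted above with the kinetochore genes, was not called (1.02-fold, adjusted p = 0.665, edgeR) and its groups overlapped. Kif20b, a kinesin of the central spindle that acts in cytokinesis, was at 87.4, 79.3 and 81.9 CPM in the ORAI2 libraries, against 56.8, 58.5 and 58.9 CPM in the GFP libraries. It rose 1.43-fold (log2 fold change 0.51 ± 0.046 SE; adjusted p of 2.45e-06, edgeR). Kif14, which brings citron kinase to the midbody, was at 40.99, 42.4 and 42.1 CPM in the ORAI2 libraries, against 34.6, 33.02 and 32.1 CPM in the GFP libraries, 1.26-fold higher (adjusted p = 2.00e-04, edgeR). The other cytokinesis kinesins, Kif23 and Kif20a, rose 1.22-fold and 1.2-fold. The chromosome-bound Kif22 and Kif4 rose 1.23-fold and 1.19-fold. Kif15 and Kif11, which push spindle poles apart, rose 1.2-fold and 1.13-fold, and Kif2c, which depolymerises microtubules, rose 1.19-fold. Kif18a, which damps chromosome movement at the metaphase plate, was at 18.7, 18.3 and 17.6 CPM in the ORAI2 libraries, against 15.9, 15.3 and 16.97 CPM in the GFP libraries and was not called (adjusted p = 0.0696, edgeR), although its groups did not overlap. Without GFP library 3 its adjusted p was 0.0455. Kif20a shares 29.3% of its exonic bases with Cdc23 on the opposite strand, and Kif4 shares 15.1% with Pdzd11. The use of strand in counting is not stated, so reads of these overlapping genes cannot be told apart. The same holds for Ncapg, Ccna2 and Prc1, which share 13.4%, 12.5% and 11.1% of their exonic bases with Lcorl, Exosc9 and Rccd1.

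Of the 7 genes for spindle assembly and cytokinesis, 6 rose. Hmmr, a spindle pole protein and hyaluronan receptor, was at 64.6, 73.9 and 64.96 CPM in the ORAI2 libraries, against 43.7, 47.4 and 48.5 CPM in the GFP libraries. It had the highest fold change of the 58 members, 1.46-fold (log2 fold change 0.54 ± 0.061 SE; adjusted p of 1.63e-05, edgeR). Prc1, which bundles the microtubules of the central spindle, was at 183, 181 and 169.9 CPM in the ORAI2 libraries, against 143, 142 and 134 CPM in the GFP libraries, 1.28-fold higher (adjusted p = 2.22e-05, edgeR). Ect2, Racgap1 and Anln, which set up and build the contractile ring, rose 1.21-fold, 1.09-fold and 1.21-fold. Tpx2, which activates Aurora A at the spindle, rose 1.16-fold. Nusap1, which stabilises microtubules near chromosomes, was at 52.6, 57.8 and 48.2 CPM in the ORAI2 libraries, against 51.1, 51.6 and 48.7 CPM in the GFP libraries, with overlapping groups (adjusted p = 0.413, edgeR). The call of Racgap1 was lost without ORAI2 library 2 or GFP library 2 (adjusted p = 0.0588 and 0.0854).

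The APC/C and anaphase genes split. Cdc20, the activator that starts anaphase, was at 120.1, 118 and 109.8 CPM in the ORAI2 libraries, against 83.4, 89.5 and 84.8 CPM in the GFP libraries, 1.35-fold higher (log2 fold change 0.43 ± 0.045 SE; adjusted p of 8.08e-06, edgeR). Espl1, the protease separase, rose 1.31-fold, with a level of 94.8 ± 2 CPM in the ORAI2 libraries and 72.6 ± 3.64 CPM in the GFP libraries (SD, n = 3 each). Pttg1, which encodes securin, the inhibitor of separase, went the other way, at 24.9, 33.5 and 25.4 CPM in the ORAI2 libraries, against 41.1, 39.3 and 37.6 CPM in the GFP libraries. It was 1.41-fold lower (log2 fold change -0.49 ± 0.094 SE; adjusted p of 0.00104, edgeR), on 463, 628 and 469 counts in ORAI2 and 766, 734 and 703 counts in GFP. ORAI2 library 2 lay between the other ORAI2 libraries and the GFP libraries, and the groups did not overlap. Fzr1, the activator CDH1 of late mitosis and G1, was at 50.1, 50.7 and 47.9 CPM in the ORAI2 libraries, against 47.6, 49.3 and 48.5 CPM in the GFP libraries, with overlapping groups (adjusted p = 0.612, edgeR). Ube2c, the E2 enzyme that starts ubiquitin chains for the APC/C, had a fold change of 1.05 and was not called, although its adjusted p was 0.0378 without ORAI2 library 3.

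Of the 6 genes of condensin and topoisomerase, which compact and disentangle chromosomes, 4 rose, with a median of 0.12. Smc2, an ATPase core subunit of both condensins, was at 209.8, 199 and 209 CPM in the ORAI2 libraries, against 165, 160.0 and 157 CPM in the GFP libraries, 1.28-fold higher (adjusted p = 8.01e-06, edgeR). Ncapg, a subunit of condensin I, was at 87.7, 92.03 and 88.1 CPM in the ORAI2 libraries, against 72.9, 77.3 and 70.8 CPM in the GFP libraries, 1.21-fold higher (adjusted p = 2.65e-04, edgeR). Smc4, the other ATPase subunit, rose 1.1-fold. Ncapd2, a further condensin I subunit, was at 101, 101 and 97.2 CPM in the ORAI2 libraries, against 93.9, 97.99 and 90.6 CPM in the GFP libraries, with overlapping groups (adjusted p = 0.12, edgeR). Ncaph and Top2a lay at the threshold, 1.07-fold (adjusted p = 0.0491) and 1.08-fold (adjusted p = 0.0572). Ncaph lost its call without ORAI2 library 1, 2 or 3 (adjusted p = 0.0518, 0.0764 and 0.106) and without GFP library 2 or 3 (0.140 and 0.145). The call also failed without a filter on low counts, under DESeq2 and with upper quartile factors (adjusted p = 0.102, 0.116 and 0.09996). Top2a gained a call without ORAI2 library 3 or GFP library 1 (adjusted p = 0.0297 and 0.0454, edgeR). It also gained one in edgeR with library size only, the 5 CPM filter and the replicate block (adjusted p = 0.0405, 0.0462 and 0.0134). Under DESeq2 it was called as well (adjusted p = 0.0416).

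**Figure D3:**
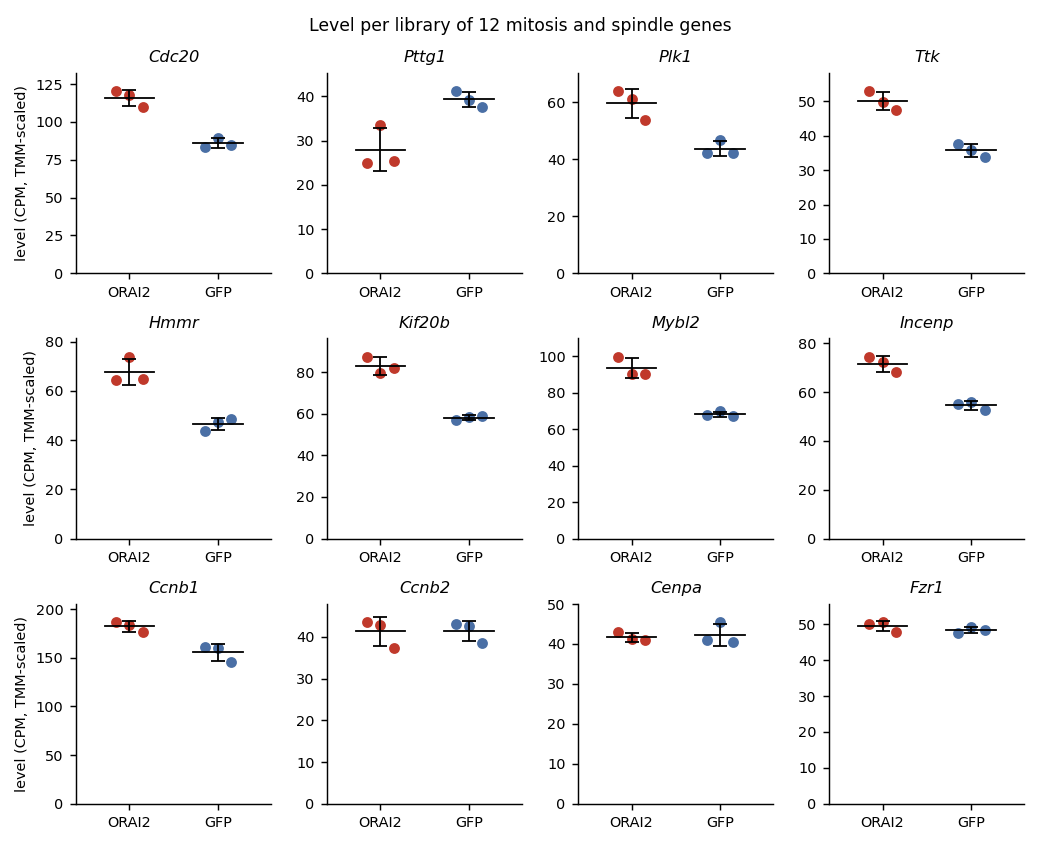
Level per library of 12 members in CPM, with ORAI2 left (red) and GFP right (blue). Black lines are the group mean and bars 1 SD over 3 libraries. Cdc20, Plk1, Ttk, Hmmr, Kif20b, Mybl2, Incenp and Ccnb1 lie higher in ORAI2 with no overlap, Pttg1 lies lower, and Ccnb2, Cenpa and Fzr1 overlap.

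Set side by side, 6 of 8 kinases, 9 of 10 kinesins, 3 of 9 centromere and kinetochore genes and 2 of 5 APC/C and anaphase genes were called higher, with median log2 fold changes of 0.30, 0.27, 0.08 and 0.07. The kinesin Cenpe, not called, was counted among the centromere and kinetochore genes. The difference between these classes was not tested. The contrast within pairs of partner genes was measured as the log2 ratio of their counts in each library, which needs no scaling between libraries. The 10 pairs were formed with the fold changes already known. Since gene lengths differ, only the difference of a ratio between ORAI2 and GFP is read.

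In 8 of the 10 pairs the ratios did not overlap between the groups. The share of other gene pairs without overlap was not computed, so this count has no background beside it. Among single genes tested, ORAI2 lay fully above GFP in 26.2% and fully below in 26.6%. The widest gap was that of separase to securin: the Espl1/Pttg1 log2 ratio was 1.96, 1.47 and 1.90 in the ORAI2 libraries, against 0.74, 0.90 and 1.01 in the GFP libraries, a difference of 0.89. The Cdc20/Fzr1 ratio was 1.26, 1.22 and 1.20 in ORAI2, against 0.81, 0.86 and 0.81 in GFP, a difference of 0.40. Every ORAI2 library thus held more counts of Cdc20 per count of Fzr1 than any GFP library. The Ccnb1/Ccnb2 ratio was 2.10, 2.10 and 2.24 in ORAI2, against 1.90, 1.91 and 1.91 in GFP. The Bub1/Bub1b ratio was -0.14, -0.15 and -0.21 in ORAI2, against -0.43, -0.41 and -0.44 in GFP. For Incenp/Aurkb, Kif20b/Kif20a, Smc2/Smc4 and Nuf2/Ndc80 the differences were 0.35, 0.24, 0.22 and 0.19, again without overlap. Aurka/Aurkb and Spc25/Spc24 overlapped, with differences of 0.28 and 0.20. For a pair without overlap the two-sided exact permutation p was 0.1, the smallest that 3 against 3 libraries allow, and 0.125 after adjustment over the 10 pairs. No pair could therefore have passed 0.05, and the pairs were picked on these same values. No conclusion is drawn from these p-values.

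**Figure D4:**
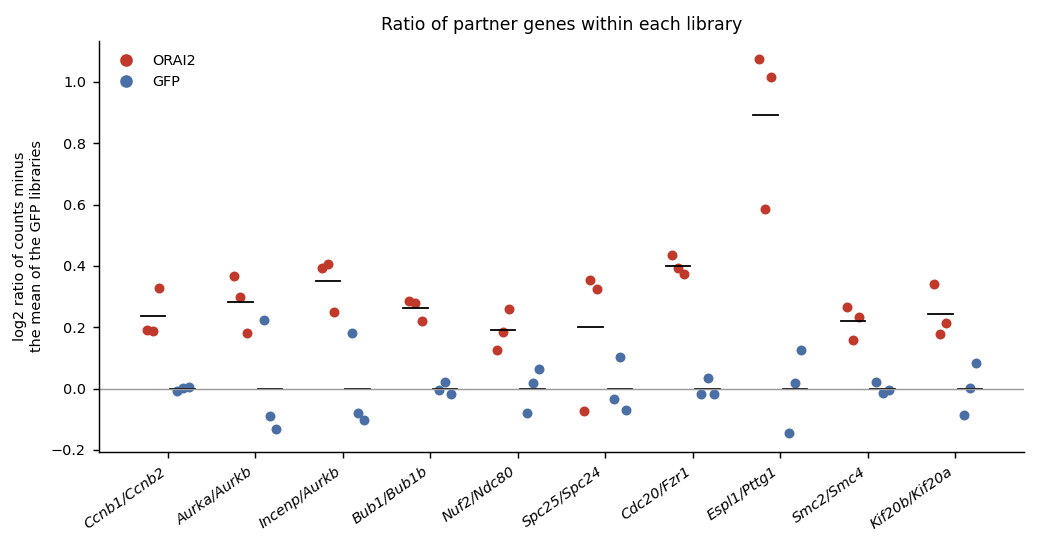
Log2 ratio of counts for 10 pairs of partner genes in each library, minus the mean of the GFP libraries, with ORAI2 (red) left of GFP (blue) in each pair and black lines at the group means. Espl1/Pttg1 shows the widest separation, 0.89, and Aurka/Aurkb and Spc25/Spc24 overlap.

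Genes of the same pathways outside the 58 were counted from lists. Of 132 further mitosis genes tested, 64 rose and 15 fell, with a median log2 fold change of 0.13. Of 30 other kinetochore and centromere genes, 17 rose and 1, Oip5, which helps load CENP-A, fell 1.15-fold. Spdl1 and Zw10, which bring dynein to kinetochores, rose 1.41-fold and 1.39-fold, and Cenpi and Ska2 rose 1.37-fold and 1.30-fold. The median over the 30 was 0.18, beside 0.08 over the 9 members of this class, a difference that was not tested. Nusap1 and Oip5 share exonic bases on opposite strands.

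Among 16 APC/C core subunits and inhibitors, 3 rose and 2 fell, close to the share over all genes. Fbxo5, which encodes the APC/C inhibitor EMI1, was at 39.3, 41.7 and 36.1 CPM in the ORAI2 libraries, against 23.8, 24.9 and 21.9 CPM in the GFP libraries. It was 1.66-fold higher (adjusted p = 4.07e-06, edgeR), more than any of the 58 members. Ube2s, the E2 that extends ubiquitin chains, rose 1.20-fold and the subunit Cdc23 rose 1.09-fold, while the subunits Anapc13 and Anapc4 fell 1.23-fold and 1.10-fold. Cdc23 shares exonic bases with Kif20a on the opposite strand, and reads of that overlap cannot be assigned to either gene.

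Of 19 other mitotic kinases, phosphatases and regulators tested, 11 rose and 3 fell. Ccnf, which encodes cyclin F, was at 48.3, 48.1 and 42.4 CPM in ORAI2, against 29.7, 30.9 and 26.7 CPM in GFP, 1.59-fold higher. Cks2, a small partner of CDK1, rose 1.41-fold and Cdc25a, the third CDC25 phosphatase, 1.37-fold. The kinases Nek9 and Nek6 and the phosphatase subunit Ppp1ca fell 1.24-fold, 1.19-fold and 1.14-fold. Of 40 other spindle, centrosome and cytokinesis genes, 22 rose and 4 fell. Depdc1a rose 1.49-fold, Stil, needed for centriole duplication, 1.31-fold and Cdca2, which targets a phosphatase to chromatin, 1.31-fold. Psrc1, Haus7 and Numa1 fell, with log2 fold changes of -0.48, -0.31 and -0.16.

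Of 15 cohesin genes, 5 rose, led by Pds5a, Esco2 and Cdca5 at 1.22-fold, 1.26-fold and 1.21-fold, and 2 fell, Hdac8 1.24-fold and Stag1 1.08-fold. Of the 3 other condensin genes, Ncapd3 and Ncapg2 rose 1.23-fold and 1.17-fold and Ncaph2 fell 1.11-fold. Of 9 further DREAM and MuvB genes, 4 rose, Tfdp1 1.25-fold, Lin54 1.16-fold, Lin9 1.15-fold and E2f4 1.13-fold. The pocket proteins of DREAM, Rbl1 and Rbl2, fell 1.16-fold and 1.11-fold. These were the 2 of 9 called lower (22.2%), close to the 22.1% over all genes tested. For comparison, 12 of 18 S-phase genes rose and 2 fell, with a median of 0.19. Rrm2, a subunit of ribonucleotide reductase, was at 192, 191 and 171 CPM in ORAI2, against 119, 126 and 117 CPM in GFP, 1.53-fold higher.

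**Figure D5:**
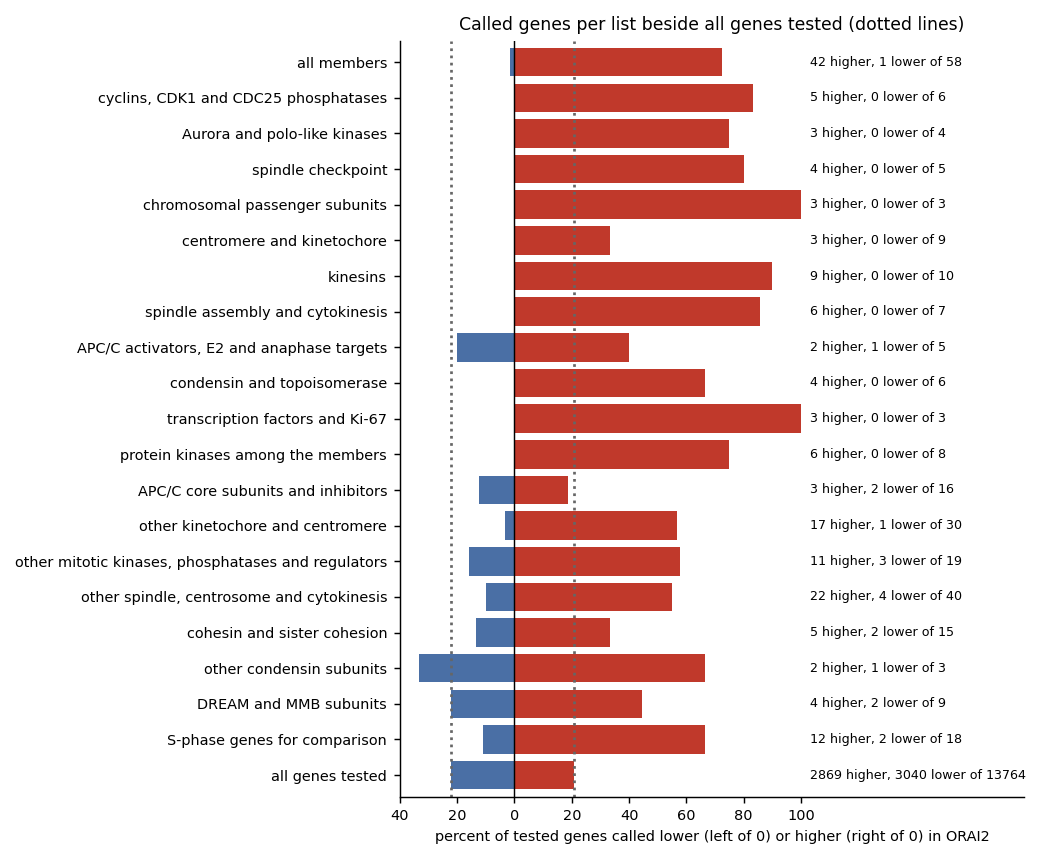
Percent of tested genes called higher (red, right of 0) or lower (blue, left of 0) in ORAI2, for all members, each role, the kinases, the further lists and all genes tested. Dotted lines mark the shares over all genes, 20.8% higher and 22.1% lower. The role classes mostly pass 60% higher, and the centromere and kinetochore and APC/C classes stand at 33.3% and 40.0%.

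Markers of other cell types were measured beside the mitotic genes. Of 11 fibroblast and mesenchymal markers tested, 9 fell and 1, Cd44, rose, and their summed level was 1503 to 1584 CPM in ORAI2, against 2559 to 2701 CPM in GFP. Vim and Col1a1, which fibroblasts make in quantity, averaged 383 and 486 CPM in ORAI2, against 486 and 1260.1 CPM in GFP, while Col1a2 averaged 4.497 CPM in ORAI2 and 13.6 CPM in GFP. Thy1, a marker of mesenchymal stem cells, had 1 count in each ORAI2 library, against 1, 2 and 3 counts in the GFP libraries. The osteoblast genes Sp7, Bglap and Bglap2 had at most 4 counts in any library. Runx2 and Spp1 averaged 66.7 and 545 CPM in ORAI2, against 71.5 and 612 CPM in GFP, and were not called. Macrophage and leukocyte markers summed to 26.7 to 35.9 CPM in ORAI2, against 52.0 to 55.7 CPM in GFP, nearly all from Cd14 and Mpeg1, which both fell, with Ptprc, Itgam and Csf1r at most at 4 counts. Endothelial markers summed to 16.3 to 17.5 CPM in ORAI2, against 6.42 to 8.88 CPM in GFP. Both endothelial markers tested rose, Kdr at 6.24 CPM in ORAI2 and 3.11 CPM in GFP and Vwf at 10.2 CPM in ORAI2 and 3.70 CPM in GFP (adjusted p = 5.97e-05 and 1.84e-05, edgeR), while Pecam1, Cdh5 and Tek were at most at 7 counts. Epithelial markers summed to 4.21 to 5.12 CPM in ORAI2, against 2.80 to 3.74 CPM in GFP. Of the 2 tested, Krt18 was not called and Grhl2 was called higher, at 2.36 CPM in ORAI2 and 0.500 CPM in GFP. Grhl2 had only 52, 50 and 30 counts in the ORAI2 libraries, against 9, 13 and 6 counts in the GFP libraries. Without its ORAI2 values it would not have passed the low-count filter, so its call is not read further. Epcam was at 0 in every library. Neural and glial markers summed to 171.1 to 184.1 CPM in ORAI2, against 140.8 to 153.5 CPM in GFP, mostly Nes. The part of these shifts in the mitotic values was not tested.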

How the data were processed

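RNA was sequenced from 3 ORAI2 and 3 GFP libraries. Per the labels' protocols, mRNA was purified on oligo(dT) beads, fragmented and primed with random hexamers. The submitters' processing notes name Salmon 1.4.0, HISAT2 2.0.4 and build GRCm39, without roles, annotation or use of strand. Per the file headers, the authors deposited whole-number counts and TPM per gene and library. No source used here says whether these are counted reads or rounded estimates. TPM columns disagreed with same-named counts and entered no main result.

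Entrez numbers were given symbols from a RefSeq table of GRCm38.p6 (25631 of 26532 matched, 96.6%). No member shares an identical transcript with another gene. Counts were tested with edgeR 4.0.16 in R 4.3.3 (quasi-likelihood F-test, TMM, filterByExpr with a minimum count of 10, ORAI2 against GFP the only term), and genes with a Benjamini-Hochberg adjusted p under 0.05 over 13764 genes were called. SEs were derived from the F statistic. CPM are TMM-scaled, except sums over marker lists, which are unscaled. Within-group pairs of libraries differed beyond sampling noise (chi-square per gene 2.62 to 4.75), so none was a copy.

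The members, roles, pathway and marker lists and motifs were chosen with earlier results of these data known. Named members followed a rule: per role, the 2 called genes with the largest change and the gene with the largest adjusted p are given in every library. Of each further list, up to 3 called genes per direction with the smallest p and the one with the largest change are named. Some genes that this rule takes are not reported here. Alternatives were RLE and upper quartile factors, library size only, no filter, 5 CPM in 3 libraries, DESeq2 1.42.0, the replicate number as a block and each library left out. Offsets within 10 GC bins and limma 3.58.1 on log2(TPM + 1) of the columns named 1 and 2 (genes with at least 1 TPM) were added after the data were seen. The edgeR, DESeq2 and limma steps were tried on simulated data with 200 changed genes. That is far fewer than the 5909 genes called here, so the simulation does not check the steps under so broad a shift.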

Additional observations from a re-analysis of the deposited data

How the results depend on the processing

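Under the other normalisations, filters and DESeq2, 40 to 43 members were called higher and 1, Pttg1, lower. Cdc25b and Ncaph lost their call under DESeq2 and without a filter, and Ncaph with upper quartile factors. Top2a gained a call with library size only, with the 5 CPM filter and under DESeq2. With single libraries left out, 39 to 43 members were called higher and 1 lower, the genes called in all were 4943 to 5661, and the median log2 fold change of the members was 0.22 to 0.27. With the replicate number as a block, 43 members were called higher, 1 lower, and 6246 genes in all. Same-numbered ORAI2 and GFP libraries deviated together only weakly (correlations of 0.068, 0.12 and 0.121), so the numbers were not taken as pairs, although each library correlated best with its own number. Offsets within GC bins, added after seeing the data, gave a median of 0.21 and 40 members higher, with Kif11, Smc4 and Ncaph losing their call. Limma on the TPM columns named 1 and 2, also added after seeing the data, uses 2 libraries a group. It gave 2101 genes called, with 826 (6.3% of those tested) higher. Of the members, 19 were called higher and 0 lower (also 0 at an unadjusted p under 0.05), with a median of 0.21. Pttg1 was at -0.39 on the log2 scale (adjusted p = 0.150, limma). Signs turned only in uncalled members. Ccnb2 was 0.0008 with library size only and lay between -0.0523 and 0.0703 over single omissions. Over single omissions Aurkb ranged from -0.0413 to 0.0986, Cenpa from -0.0546 to 0.0328 and Cenpe from -0.0176 to 0.0683. Under GC bins Cenpa was 0.0083 and Cenpe -0.012. In the TPM columns Aurkb was -0.081, Bub1b -0.016, Cenpe -0.017 and Fzr1 -0.015. The cause of these shifts was not tested. The widest standard errors, 0.074 to 0.094 log2 units, were those of Pttg1 and of the members at low levels (Spc24, Cenpk, Spc25, Aurkb, Cdc25c and Kif18a).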

Other observations

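The deposited TPM columns of the members gave values apart from the counts. Over all genes, the TPM columns named 1 and 2 in each group correlated best with the counts named 2 and 3 of the same group (Spearman's rho across genes 0.957 to 0.959, against 0.911 to 0.913 for the counts of their own name), and the columns named 3 matched no count column (rho at most 0.904). Orai2 stood at 1430, 1241 and 36.3 TPM in the columns named ORAI2 1, 2 and 3, against 24.8, 24.9 and 38.2 TPM in those named GFP 1, 2 and 3. The summed TPM of the 58 members was 4242, 4054 and 4385 in the ORAI2 columns, against 3790, 3611 and 4595 in the GFP columns. In 45 of 58 members both ORAI2 columns named 1 and 2 lay above both GFP columns so named, while the ORAI2 column named 3 lay above the GFP column named 3 in 26 of 58. The shares of all genes with these patterns were not computed, so these counts have no background beside them.

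Promoter elements were also counted outside the mitotic set. Of 1776 tested genes that are no members and hold a CHR anywhere in the window, 22.9% were called higher and 22.7% lower, with a median log2 fold change of 0.009. Of the 254 that hold a CHR within 50 bases of the start together with CCAAT, 29.1% were called higher and 23.6% lower, with a median of 0.045. Of 8884 tested genes with a window and no CHR, 20.5% were called higher and 22.3% lower, with a median of -0.006.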
